A study of Mus musculus with 10 samples.

Results

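The immediate early genes Fos, Fosb, Jun, Junb, Jund, Egr1, Ier2, Ier5, Atf3 and Npas4 were followed across amacrine cells that had been sorted from mouse retinas on postnatal day 19. They were chosen by name, and make up 10 of the 27933 gene symbols in the deposited table. All 10 had UMIs (unique molecular identifiers, which count each captured RNA molecule once). Immediate early genes are transcribed within minutes of a stimulus, without new protein synthesis, when calcium, growth factor or stress signals reach transcription factors that already sit in the nucleus. Most encode transcription factors of their own: Fos and Fosb pair with Jun, Junb or Jund to form AP-1, which then turns on later genes. In neurons they are read as a trace of recent activity, and in dissociated tissue they also rise while cells are being prepared.

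The cells came from retinas of the Chx10-cre-GFP strain, the only strain in the series, and all were prepared in the same way per the labels. Retinas were dissociated in papain at 37 °C for 10 minutes, and live cells (positive for Calcein Blue) that lacked GFP, CD133-APC and CD73-PE were sorted. As background, the Chx10 transgene marks bipolar cells, and the pair of antibodies marks photoreceptors, so the sort keeps the remaining cells rather than picking amacrine cells by a marker of their own. Libraries were made with 10x Genomics Chromium 3′ v2 chemistry. There were 10 libraries: 1 labelled batch 1 (library 1), 5 labelled batch 2 (libraries 2 to 6) and 4 labelled batch 3 (libraries 7 to 10). The labels say neither what a batch is nor whether libraries came from separate animals, so p-values measure the spread between these libraries, which may be technical. There is no treatment, genotype or light condition to compare.

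Cells were compared through 7 gates set on UMIs of marker genes. The Gad gate took cells with at least 2 UMIs of Gad1 plus Gad2, which make GABA, and none of Slc6a9. The Slc6a9 gate took cells with at least 2 UMIs of Slc6a9, the glycine transporter of glycinergic amacrine cells, and none of Gad1 or Gad2. The other gates asked for at least 2 UMIs of Maf (a transcription factor), 3 of Gjd2 (connexin 36), 2 of Chat plus Slc18a3 (the acetylcholine enzyme and its vesicle transporter), 2 of Slc17a8 (a vesicular glutamate transporter) and 5 of Vip (a neuropeptide). The gates held 16415, 4556, 2470, 1940, 651, 666 and 930 cells in that order, of 32523 in all. They overlap: 70.8% of Maf-gated cells, 77.6% of Chat Slc18a3-gated cells and 70.5% of Vip-gated cells also lay in the Gad gate, while 48.1% of Gjd2-gated and 28.5% of Slc17a8-gated cells lay in the Slc6a9 gate. A gate is a cut on counts and no cell type is named from it.

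Libraries held 950 to 4738 cells and 6302659 to 26028492 UMIs. All 7 pan-amacrine markers (Pax6, Tfap2a, Tfap2b, Slc32a1, Stx1a, Elavl3 and Snhg11) were detected in every library, with a summed level of 7055 to 8448 UMIs per 1000000 UMIs (CPM). Of 31586 cell barcodes, 923 (2.92%) were found in more than 1 library. Libraries 5 and 6 shared 312 (7.005% of the smaller) and libraries 2 and 3 shared 59 (1.78%), against 0.186% to 0.842% in the other 43 pairs. The copies were unequal: barcodes shared by libraries 5 and 6 had a median of 12369 UMIs in the deeper copy and 1815 in the shallower. With the 1860 cells that carried a shared barcode left out, the calls on members in the 3 batch comparisons and the 6 gate comparisons over all libraries stayed on their side of the threshold except for Jund in the Gjd2 gate. The fits within single batches were not repeated without those cells.

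RefSeq promoters of GRCm38.p6 were matched by symbol for 8 of the 10 genes; Egr1 and Ier2 were not matched. Motifs were searched on both strands in the 250 bases before the RefSeq start, from which positions are counted: the cyclic AMP response element TGACGTCA (in 1.55% of all 32851 promoters), its half-site TGACG (17.8%), the AP-1 site TGANTCA (6.75%), TATAAA (12.4%), the EGR site GCGNGGGCG (4.70%) and the CArG box of serum response factor (1.47%). The half-site lies within the full response element. Fos, Fosb and Junb are shown as 3 of the members that were lower in batch 3 and in the Slc6a9 gate and higher in the Maf gate. They are not all of them, since Jun, Egr1 and Npas4 had the same calls. Ier5 is shown because it was higher in batch 3 and in the Slc6a9 gate. The sequences run 5′ to 3′ on the gene's strand up to the RefSeq start, with matches in capitals. For Fosb the last 6 bases of the window are not shown, since GENCODE M21 places them inside the gene. For Junb the RefSeq start lies 30 bases before the GENCODE gene.
Fos: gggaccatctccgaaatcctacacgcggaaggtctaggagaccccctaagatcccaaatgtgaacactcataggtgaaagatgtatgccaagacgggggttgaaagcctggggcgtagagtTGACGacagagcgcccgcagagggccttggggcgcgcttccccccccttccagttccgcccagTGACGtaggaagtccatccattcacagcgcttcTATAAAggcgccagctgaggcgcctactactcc
Fosb: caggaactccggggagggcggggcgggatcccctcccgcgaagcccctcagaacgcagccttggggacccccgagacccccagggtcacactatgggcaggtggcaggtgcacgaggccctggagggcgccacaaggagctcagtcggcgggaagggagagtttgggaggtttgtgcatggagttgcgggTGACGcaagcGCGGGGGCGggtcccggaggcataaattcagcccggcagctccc
Junb: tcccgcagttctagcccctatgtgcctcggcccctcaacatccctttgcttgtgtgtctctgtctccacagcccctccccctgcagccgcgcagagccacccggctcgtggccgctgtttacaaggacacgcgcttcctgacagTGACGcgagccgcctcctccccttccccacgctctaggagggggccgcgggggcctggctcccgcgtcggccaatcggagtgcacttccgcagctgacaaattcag
Ier5: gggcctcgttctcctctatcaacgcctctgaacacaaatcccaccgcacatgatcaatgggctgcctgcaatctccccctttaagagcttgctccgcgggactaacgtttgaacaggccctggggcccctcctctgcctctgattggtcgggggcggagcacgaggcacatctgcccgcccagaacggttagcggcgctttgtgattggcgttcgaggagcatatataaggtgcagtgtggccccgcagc
The Fos window, chr12:85473640-85473889 on the plus strand, held the half-site in 2 places, beginning at positions -129 and -66 from the RefSeq start, and TATAAA at -33. The Fosb window, chr7:19310052-19310295 on the minus strand, held the half-site at -60 and the EGR site at -50. The Junb window, chr8:84978749-84978998 on the minus strand, held the half-site at -106. The Ier5 window, chr1:155099637-155099886 on the minus strand, matched none of the 6 motifs, which says only that these letters are not in this window. The windows of Jun and Jund, which are not shown, also matched none. Jun nonetheless had the calls of Fos, Fosb and Junb: lower in batch 3 and in the Slc6a9 gate, higher in the Maf gate. Egr1, whose promoter was not matched, and Npas4 had these calls as well. The Jund window ends 1210 bases before the GENCODE gene. The half-site was also found in the windows of Atf3, in 1 place, and Npas4, in 2 places, both of which lie inside the GENCODE gene. None of the 4 windows held the full response element, the AP-1 site or the CArG box.

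Across whole libraries, 6 of the 9 members that could be tested were lower in batch 3 than in batch 2, 1 (Ier5) was higher, and Jund and Ier2 did not pass the test (edgeR, adjusted p under 0.05 over 14123 genes). Of all genes tested, 54.9% passed, 28.3% as lower and 26.6% as higher, so a call by itself was common. For Fosb and Ier5 the sizes were less common. The drop in Fosb ranked within the 0.0708% of genes that lay at least as far down, and the rise in Ier5 within the 0.779% at least as far up. Such ranks are not given here for the other members.

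Fosb, the Fos family member whose products include a long-lived form, showed the largest change of the 9. It measured 44.9 CPM in library 1, then 80.4, 102.9, 109.8, 103.9 and 104.4 CPM in libraries 2 to 6 of batch 2, and 20.3, 16.0, 18.8 and 17.4 CPM in libraries 7 to 10 of batch 3. The lowest batch 2 library lay above the highest batch 3 library by a wide margin, and library 1 fell between the 2 batches. The fitted change was 5.35-fold lower in batch 3 (log2 change -2.42, SE 0.09, edgeR adjusted p = 5.8e-13).

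Fos, the gene most used as a marker of activated neurons, measured 402 CPM in library 1, then 609, 622, 612, 625 and 633 CPM in batch 2, and 448, 421, 460 and 444 CPM in batch 3. Library 1 was the lowest of all 10, and no batch 2 library overlapped batch 3. Fos was 1.35-fold lower in batch 3 (log2 change -0.43, SE 0.04, edgeR adjusted p = 3.78e-08). Jun, a main partner of Fos, measured 125 CPM in library 1, then 172, 171, 175, 192 and 169 CPM in batch 2, and 91.2, 92.8, 91.1 and 92.3 CPM in batch 3. The batch 3 libraries differed among themselves by under 2 CPM, while all lay far below batch 2. Jun was 1.85-fold lower (log2 change -0.89, SE 0.04, edgeR adjusted p = 1.86e-11).

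Junb, a Jun family partner that can restrain Jun, was 1.5-fold lower in batch 3, at 206, 191, 208 and 201 CPM against 319, 302, 336, 320 and 289 CPM in batch 2 (edgeR adjusted p = 5.21e-09). Egr1, a zinc finger factor of the activity response, was 1.41-fold lower, at 113, 107, 117 and 108 CPM against 168, 164, 168, 158 and 156 CPM (edgeR adjusted p = 8.18e-09). Npas4, a factor that in neurons answers to calcium entry, was 1.34-fold lower, at 42.1, 40.4, 43.2 and 41.4 CPM against 56.6, 60.1, 57.3, 60.4 and 55.1 CPM (edgeR adjusted p = 2.94e-07). None of the 3 overlapped between the batches. Library 1 held 199 CPM of Junb and 38.7 CPM of Npas4, near or below batch 3, and 137 CPM of Egr1, between the batches.

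Ier5, a nuclear protein that acts on heat shock factor HSF1, went the other way. It measured 69.0 CPM in library 1, then 60.01, 66.9, 54.2, 62.5 and 55.5 CPM in batch 2, and 106.6, 109.2, 103.4 and 110.6 CPM in batch 3. The batches did not overlap, and Ier5 was 1.87-fold higher in batch 3 (log2 change 0.90, SE 0.05, edgeR adjusted p = 2.36e-10). Jund, the Jun family member known for steady expression, spread widely within batch 2, from 391 to 557 CPM, and overlapped the 381 to 455 CPM of batch 3 (log2 change -0.11, edgeR adjusted p = 0.267). Ier2, a small nuclear protein of the early response, ranged from 61.3 to 70.7 CPM in batch 2 and from 55.0 to 62.6 CPM in batch 3 (log2 change -0.09, edgeR adjusted p = 0.111).

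Atf3, a stress-induced factor, was near absent. The 10 libraries held 59 of its UMIs in all, at 0.793 CPM in library 1, 0.346 to 0.639 CPM in batch 2 and 0.0970 to 0.131 CPM in batch 3. It was too low for the fit across genes. On the CPM values alone, an exact 2-sided permutation test of batch 3 against batch 2 gave its smallest possible p, 0.0159, for 8 of the 10 members, Atf3 among them, without adjustment over the 10 tests. Those 8 did not overlap between the batches. Among the genes that entered the fit, which Atf3 did not, 42.5% had no overlap.

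Markers of other cell types moved with the batch as well. All 8 bipolar cell markers were lower in batch 3, summing to 142 to 181 CPM in batch 2 and 92.3 to 101 CPM in batch 3. Of the 6 ganglion cell markers tested 5 were lower and Thy1 was higher, and of the 6 cone markers 4 were lower. The median cell held 3297 to 4285 UMIs in batch 2 libraries and 4403 to 5598 in batch 3. The part of these markers and of depth in the members' change was not tested.

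**Figure D1:**
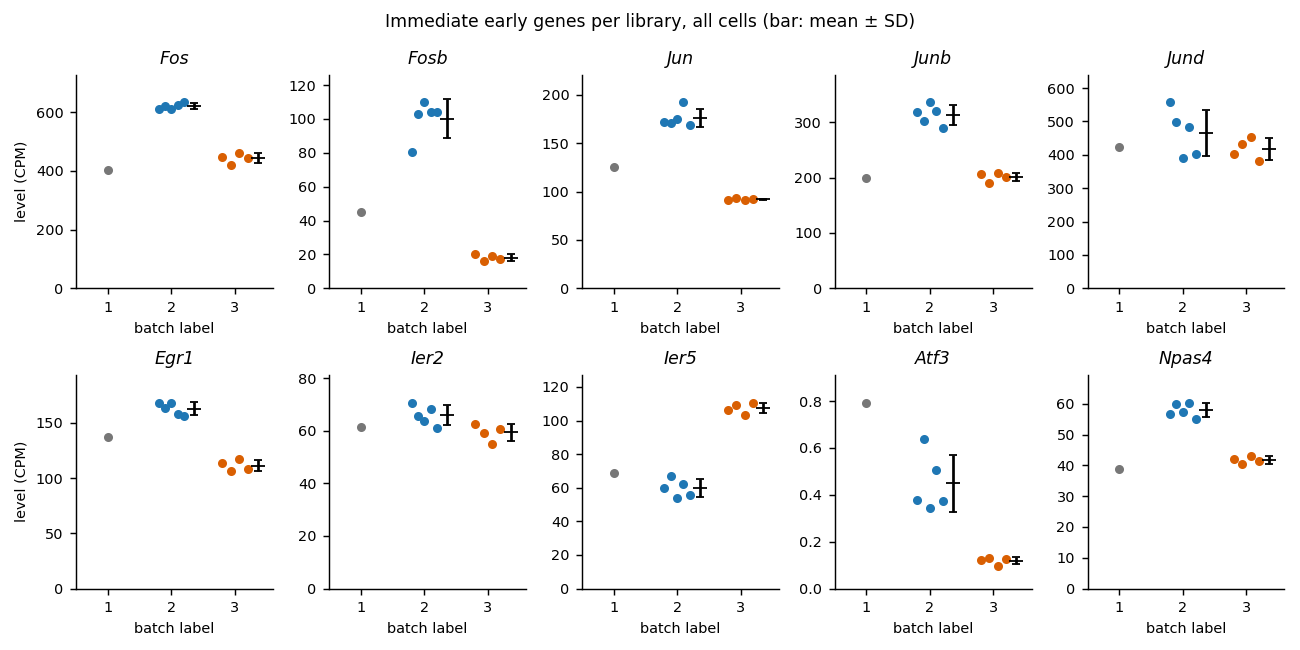
CPM of each of the 10 genes (y axes, each starting at 0) in whole-library sums by batch label (x axis), with 1 point per library and a bar at the mean ± SD of batches 2 and 3. Fosb falls from 80.4 to 109.8 CPM in batch 2 to 16.0 to 20.3 CPM in batch 3, and Ier5 rises from 54.2 to 66.9 CPM to 103.4 to 110.6 CPM.

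In a whole-library sum, fewer cells of a type and less RNA per cell cannot be told apart. The gates took different shares of the batches: Slc6a9-gated cells made up 8.13% to 11.3% of cells in batch 2 libraries and 21.2% to 23.2% in batch 3. The batches were therefore compared again inside the Gad and Slc6a9 gates.

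Inside the Gad gate 7 members were lower in batch 3 and none was higher (48.5% of the 13027 genes tested passed, 25.1% as lower and 23.4% as higher). Fosb was 5.14-fold lower (edgeR adjusted p = 8.78e-13), at 23.1, 17.7, 20.3 and 18.3 CPM in batch 3 against 83.1, 109.7, 114.5, 109.9 and 110.7 CPM in batch 2. Jun was 1.85-fold lower (edgeR adjusted p = 3.06e-11), and Junb, Egr1, Fos and Npas4 were 1.26-fold to 1.45-fold lower. Ier2, which had not passed in whole libraries, was 1.29-fold lower here (edgeR adjusted p = 9.47e-05). Ier5 in the Gad gate measured 46.4, 51.0, 41.9, 49.8 and 44.1 CPM in batch 2 and 43.2, 44.8, 41.3 and 44.6 CPM in batch 3. The batches overlapped, with a log2 change of -0.04 (SE 0.06, edgeR adjusted p = 0.597), so the rise of Ier5 in whole libraries was not seen among Gad-gated cells.

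Inside the Slc6a9 gate 6 members were lower in batch 3 and 2 were higher (30.8% of the 9964 genes tested passed, 15.6% as lower and 15.3% as higher). Ier5 measured 111, 114, 102, 108 and 99.8 CPM in batch 2 and 276, 263, 270.3 and 279 CPM in batch 3, and 107 CPM in library 1. The batches lay far apart, at 2.61-fold (log2 change 1.38, SE 0.06, edgeR adjusted p = 3.03e-20). Ier2 was 1.35-fold higher (edgeR adjusted p = 0.00134), at 78.7, 84.0, 74.5 and 83.5 CPM in batch 3 against 81.5, 56.4, 53.9, 63.6 and 51.4 CPM in batch 2, where library 2 overlapped batch 3. Fosb was 5.23-fold lower and Jun 2.24-fold lower, while Egr1, Junb, Jund and Fos were 1.20-fold to 1.60-fold lower. Npas4 did not pass (edgeR adjusted p = 0.698). The 7 ganglion cell markers summed to 246 to 291 CPM in the Slc6a9 gate of batch 2 and 462 to 549 CPM of batch 3, and the 8 Müller glia markers to 397 to 447 CPM and 504 to 528 CPM. In the first list 2 of the 3 genes tested were higher (Nefl and Thy1) and 1 lower (Sncg), and in the second 1 of 6 was higher (Dkk3). Their part in these differences was not tested. Without library 5 (log2 change -0.21, edgeR adjusted p = 0.0574) or library 7 (-0.23, edgeR adjusted p = 0.0667), Fos lost its call.

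The comparison of the Slc6a9 gate with the Gad gate asks whether cells of the 2 gates in 1 library carry different levels. All 9 members tested passed, 7 lower and 2 higher in Slc6a9-gated cells, where 61.2% of the 11253 genes tested passed (29.1% as lower, 32.1% as higher). Fos ranged over the 10 libraries from 198 to 336 CPM (median 246) in the Slc6a9 gate and from 437 to 723 CPM (median 601) in the Gad gate. The gates did not overlap, and Fos was lower in 10 of 10 libraries, by 2.31-fold (log2 change -1.21, SE 0.05, edgeR adjusted p = 2.15e-14). Junb ranged from 84.6 to 147 CPM against 209 to 372 CPM and was 2.55-fold lower in 10 of 10 libraries, also without overlap (edgeR adjusted p = 9.31e-14). Npas4 was 2.49-fold lower (edgeR adjusted p = 8.11e-11) and Egr1 2.22-fold lower (edgeR adjusted p = 2.06e-11), each in 10 of 10 libraries without overlap. Fosb was 1.99-fold lower and Jund 1.39-fold lower, each in 10 of 10 libraries, though their ranges overlapped across batches. Jun was 1.27-fold lower in 9 of 10 libraries, the exception being library 1. For the gate comparisons, here and below, the share of all genes without overlap was not counted.

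Ier5 was the member that stood highest in the Slc6a9 gate. It ranged from 99.8 to 279 CPM (median 112) there and from 41.3 to 51.0 CPM (median 44.7) in the Gad gate, with no overlap. It was higher in 10 of 10 libraries, by 3.78-fold (log2 change 1.92, SE 0.17, edgeR adjusted p = 2.18e-09). Ier2 was 1.28-fold higher in the fit over all libraries (edgeR adjusted p = 0.00638), but only 6 of 10 libraries showed that direction. Gated cells differed in depth, with a median of 3664 UMIs in the Slc6a9 gate and 5411 in the Gad gate. Restricting both gates to cells of 2000 to 8000 UMIs left every one of the 9 on its side of the threshold.

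**Figure D2:**
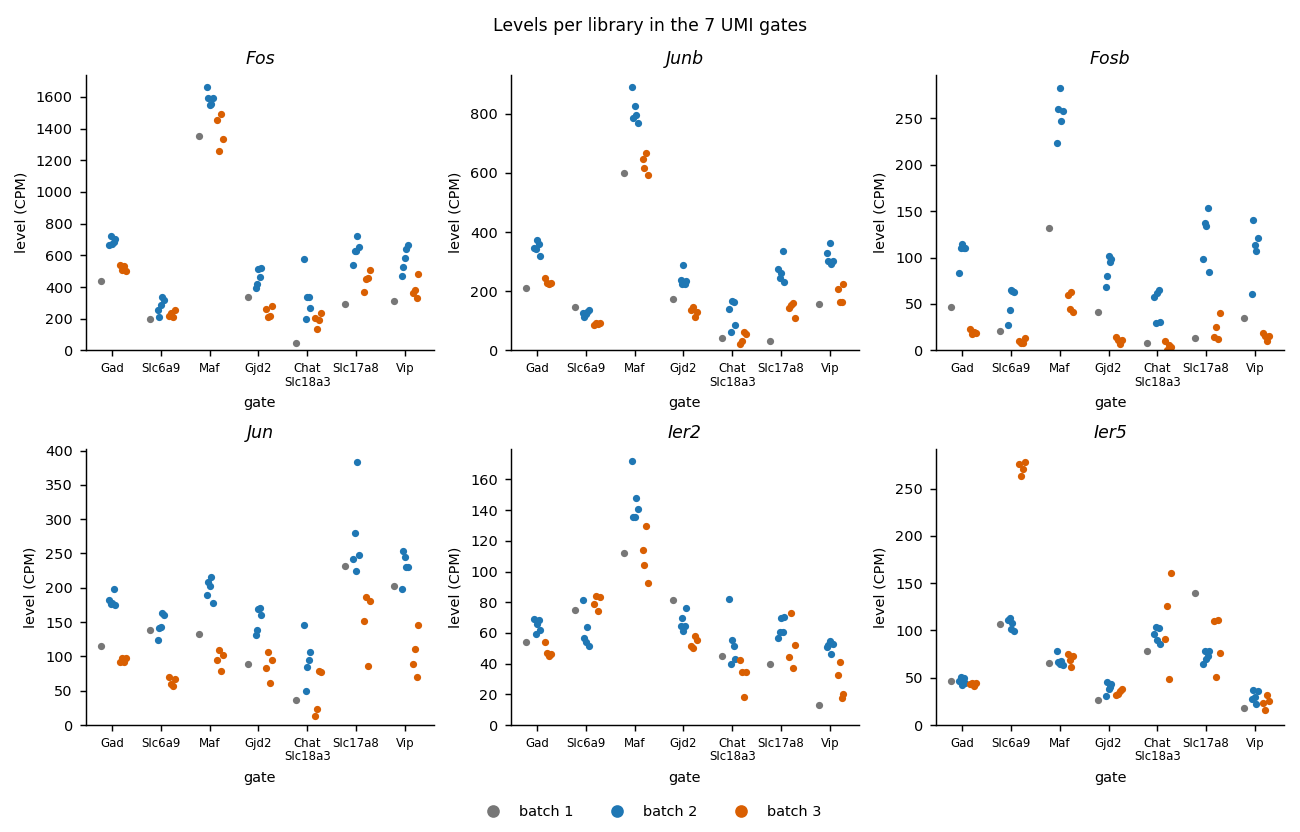
CPM (y axes, each starting at 0) of Fos, Junb, Fosb, Jun, Ier2 and Ier5 in each of the 7 gates (x axis), with 1 point per library coloured by batch. The Maf gate stands highest for Fos at 1258 to 1661 CPM, and the Slc6a9 gate highest for Ier5 at 99.8 to 279 CPM.

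Markers of other cell types differed between the same gates. The 8 Müller glia markers summed to 397 to 528 CPM in the Slc6a9 gate and 919 to 1229 CPM in the Gad gate. Of the 6 tested, Apoe, Rlbp1 and Slc1a3 were higher and Dkk3 and Glul lower in the Slc6a9 gate, and Kcnj10 was at 0 in 7 of 10 libraries there. The 6 endothelial markers summed to 39.7 to 80.5 CPM and 6.45 to 12.03 CPM. Kdr was the only one tested, at 57.2 and 6.17 CPM, while Cdh5 and Tie1 were at 0 in all 10 libraries of the Slc6a9 gate. The 6 cone markers summed to 86.7 to 222 CPM and 80.3 to 139 CPM, and all 6 were higher. In 1 alternative, cells with 3 or more markers of 1 other type (Müller glia, microglia, endothelium, astrocytes or bipolar cells) were left out. All 9 members kept their call. That cut, also used below, did not draw on the marker lists of cones, rods, ganglion cells, horizontal cells or pericytes. Without cells holding Maf UMIs the 9 calls also held, but several differences were smaller. Fos then had a log2 change of -0.63 (from -1.21), Junb of -0.78 (from -1.35) and Fosb of -0.48 (from -0.99). Ier2, at 0.79, and Ier5, at 2.06, were no smaller.

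The Maf gate held the highest levels of most members. Of the 9, 8 were higher in Maf-gated cells than in the other cells of the same library and none was lower, where 50.7% of the 11960 genes tested passed (26.1% as higher). Fos ranged from 1258 to 1661 CPM (median 1522) in the gate, and in no library outside it did Fos come near that range: the other cells had 388 ± 67.6 CPM (SD, n = 10). The rise was 3.90-fold in 10 of 10 libraries (log2 change 1.96, SE 0.04, edgeR adjusted p = 1.38e-17), and 0.727% of genes lay at least as far up. Junb averaged 719 ± 107 CPM against 189 ± 40.0 CPM (SD, n = 10), a rise of 3.88-fold (edgeR adjusted p = 5.03e-18). Fosb rose 3.57-fold, Egr1 2.81-fold, Ier2 2.51-fold and Npas4 2.33-fold, each in 10 of 10 libraries, with edgeR adjusted p-values from 4.92e-16 to 1.47e-11. Fos, Junb, Egr1, Ier2 and Npas4 had no overlap between the gate and the other cells, a feature not counted over all genes. Jund rose 1.29-fold in 10 of 10 libraries and Jun 1.14-fold in 9 of 10, so both moved far less than the other AP-1 genes.

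Ier5 was the exception, at 61.5 to 78.1 CPM in the Maf gate of every library. It was higher than in the other cells in 4 of 10 libraries (log2 change -0.09, SE 0.11, edgeR adjusted p = 0.486). With both sides limited to Gad-gated cells, Ier5 was higher in the Maf-gated ones, at a log2 change of 0.69 (edgeR adjusted p = 4.83e-09). Jun lost its call in that setting, at a log2 change of 0.13 (edgeR adjusted p = 0.0678). The other cells of the first comparison include the Slc6a9 gate, where Ier5 was high.

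Beside these levels, the 7 ganglion cell markers summed to 633 CPM or more in the Maf gate, with a mean of 760.3 CPM against 492 CPM over all cells. Of the 6 tested, Thy1 was higher and Sncg lower, and Pou4f2 was at 0 in 3 of 10 libraries of the gate. The Müller glia list averaged 973 CPM in the gate and 953 CPM over all cells. Without cells holding 3 or more markers of another type, the 8 members that were higher kept their call, and Ier5 again did not pass. That cut did not use ganglion cell markers, so it says nothing on their part.

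Gjd2-gated cells had lower levels of 5 members and higher levels of none, where 48.4% of the 11648 genes tested passed (24.5% as lower, 23.9% as higher). Gjd2 encodes the gap junction protein of AII amacrine cells, and Gjd2-gated cells fell mostly outside the Gad gate. Ier5 ranged from 26.4 to 46.0 CPM in the gate, below the range of the other cells in every library, and was 1.99-fold lower in 10 of 10 (log2 change -0.996, SE 0.12, edgeR adjusted p = 5.05e-07). Fos was 1.48-fold lower (edgeR adjusted p = 3.48e-07), Junb 1.34-fold (edgeR adjusted p = 3.69e-07), Egr1 1.28-fold (edgeR adjusted p = 0.00136) and Fosb 1.16-fold (edgeR adjusted p = 0.0106), each in 10 of 10 libraries with overlapping ranges. Fosb lost its call without library 3 (log2 change -0.17, edgeR adjusted p = 0.0606) and with the gate raised by 1 UMI (edgeR adjusted p = 0.0805). Jun, Jund, Ier2 and Npas4 did not pass, at log2 changes between -0.14 and 0.07. With both sides limited to Slc6a9-gated cells, Ier5 was lower by a log2 change of -2.84 (edgeR adjusted p = 1.46e-14) and Jund was higher at 0.54 (edgeR adjusted p = 9.52e-09), whereas Junb (-0.02) and Fosb (-0.35) no longer passed and Jun was higher (log2 change 0.31, edgeR adjusted p = 0.0377). The 6 endothelial markers summed to 49.8 to 76.4 CPM in the gate and 17.2 to 21.8 CPM over all cells, which was Kdr above all (log2 change 2.24), and 6 of 8 bipolar markers were higher. The 5 horizontal cell markers, of which Tfap2b is also a pan-amacrine marker, summed to 1744 to 2406 CPM against 1155 to 1332 CPM, with Calb1, Onecut1 and Tfap2b higher of the 4 tested. The Müller glia markers summed to 305 to 654 CPM against 834 to 1023 CPM, with 3 of 6 lower. The part of these markers was not tested. Without cells holding 3 or more markers of another type, no member changed its call. The horizontal cell list was not part of that cut.

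Chat Slc18a3-gated cells, which carry the genes of starburst amacrine cells, had lower levels of 8 members and a higher level of Ier5 (34.8% of the 11418 genes tested passed, 18.0% as lower and 16.8% as higher). The 7 starburst markers summed to 2164 ± 397 CPM in the gate and 84.9 ± 30.2 CPM over all cells (SD, n = 10). Chat and Slc18a3 are among the 7, so part of that rise follows from the gate itself. A list of 6 AII genes (Gjd2, Prox1, Dab1, Nfia, Calb2 and Slc6a9) was also higher, at 6801 ± 1589 CPM against 1431 ± 149 CPM (SD, n = 10). Which of the 6 made up that difference is not given here. Junb ranged from 22.8 to 166 CPM and was 2.84-fold lower in 10 of 10 libraries with no overlap (log2 change -1.5, SE 0.12, edgeR adjusted p = 6.67e-11). Fosb was 2.09-fold lower, Fos 2.03-fold, Jun 1.88-fold, Egr1 1.88-fold and Jund 1.34-fold, each in 10 of 10 libraries. Npas4 and Ier2 were 1.53-fold and 1.27-fold lower, in 8 and 9 of 10 libraries. Npas4 did not pass in batch 3 alone (log2 change -0.23, edgeR adjusted p = 0.716), nor Ier2 in batch 2 alone (-0.24, edgeR adjusted p = 0.108). Ier5 was 1.48-fold higher in 8 of 10 libraries (edgeR adjusted p = 0.000114). That rise passed in batch 2 alone (log2 change 0.79, edgeR adjusted p = 2.32e-09) and did not in batch 3 alone (0.05, edgeR adjusted p = 0.915). The gate held as few as 17 cells in a library, and Fos within it ran from 49.4 CPM in library 1 to 575 CPM in library 2. Ier2 lost its call among cells of 2000 to 8000 UMIs (edgeR adjusted p = 0.369) and within the Gad gate (edgeR adjusted p = 0.1002). The 8 bipolar markers, of which Isl1 is also a starburst gene, summed to 755 to 1210 CPM in the gate and 92.3 to 181 CPM over all cells, and 7 of 8 were higher; without cells holding 3 or more markers of another type no member changed its call.

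Slc17a8-gated cells had a higher level of Jun and lower levels of Junb and Npas4, where 25.1% of the 11460 genes tested passed (10.6% as higher, 14.5% as lower). Jun ranged from 86.4 to 383 CPM in the gate and was 1.61-fold higher in 9 of 10 libraries (log2 change 0.68, SE 0.07, edgeR adjusted p = 5.16e-09). Junb was 1.30-fold lower in 9 of 10 (edgeR adjusted p = 0.000616) and Npas4 1.43-fold lower in 10 of 10 (edgeR adjusted p = 0.00265). Npas4 did not pass in batch 3 alone (log2 change -0.51, edgeR adjusted p = 0.173), and in batch 2 alone it lost its call without library 3 (-0.36, edgeR adjusted p = 0.0624). Fos did not pass, at 525 ± 137 CPM against 528 ± 98.6 CPM (SD, n = 10). Slc17a8-gated cells lie partly in the Slc6a9 gate, and with both sides limited to that gate Fos was higher (log2 change 0.89, edgeR adjusted p = 1.35e-10), Egr1 was higher (0.94, edgeR adjusted p = 1.71e-05) and Ier5 lower (-1.15, edgeR adjusted p = 6.3e-07). Jun kept its direction there, at 1.22 (edgeR adjusted p = 1.32e-10). The 8 bipolar markers summed to 55.6 to 516 CPM in the gate, and 7 of 8 were higher than in the other cells. Of Slc17a8-gated cells 39.6% held 3 or more markers of another type. Without such cells Jun, Junb and Npas4 kept their calls and Jund became lower (log2 change -0.20, edgeR adjusted p = 0.0274).

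Vip-gated cells had higher levels of Jun, Jund and Egr1 and lower levels of Ier2 and Ier5 (25.6% of the 11430 genes tested passed, 12.5% as higher and 13.1% as lower). Ier5 ranged from 15.5 to 37.1 CPM, the lowest of any gate, and was 2.58-fold lower than in the other cells in 10 of 10 libraries with no overlap (log2 change -1.37, SE 0.13, edgeR adjusted p = 1.05e-11). Ier2 was 1.47-fold lower in 10 of 10 libraries, also with no overlap (edgeR adjusted p = 7.59e-05). Jun was 1.34-fold higher in 8 of 10 libraries, Egr1 1.30-fold in 8 of 10 and Jund 1.24-fold in 9 of 10. In batch 3 alone Jund passed (log2 change 0.52), while Jun (0.26, edgeR adjusted p = 0.16) and Egr1 (0.20, edgeR adjusted p = 0.281) did not. Fos, Fosb, Junb and Npas4 did not pass, at log2 changes between -0.11 and 0.15. With both sides limited to Gad-gated cells, Fos (log2 change -0.40, edgeR adjusted p = 5.26e-07) and Junb (-0.30, edgeR adjusted p = 0.000163) were lower as well. The horizontal cell markers summed to 1379 to 1913 CPM in the gate and 1155 to 1332 CPM over all cells, where of the 3 tested Tfap2b was higher and Calb1 and Onecut2 lower. The 7 ganglion cell markers summed to 198 to 362 CPM and 444 to 530.4 CPM, with Nefl and Thy1 lower of the 4 tested. Their part was not tested, and no member changed its call without cells holding 3 or more markers of another type. That cut used neither the horizontal nor the ganglion cell list.

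Most gate differences were present in batch 2 and in batch 3 taken alone. Of 54 differences (9 members in 6 comparisons), 31 passed in the same direction in both batches, 10 passed in batch 2 alone, 2 in batch 3 alone and 10 in neither. In 1 case, Ier5 in the Maf gate, both batches passed in opposite directions. All genes tested passed at 50.0% in batch 2 and 54.8% in batch 3 for the Slc6a9 gate against the Gad gate, and at 46.3% and 38.2% for the Maf gate. The shares were 39.0% and 34.7% for Gjd2, 29.5% and 11.8% for Chat Slc18a3, 16.7% and 16.3% for Slc17a8 and 17.2% and 14.9% for Vip. These shares are for each batch by itself. The share of all genes that passed in the same direction in both batches was not counted. Whether 31 of 54 is more than among other genes is therefore not known.

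Whether a gate difference itself changed with the batch was tested by an interaction term over libraries 2 to 10, which passed for 18 of the 54. The low Fos of the Slc6a9 gate held at 2.40-fold in batch 2 and 2.25-fold in batch 3, and its interaction did not pass (log2 difference 0.10, SE 0.07, edgeR adjusted p = 0.481). Junb, at 2.73-fold and 2.61-fold, and Npas4, at 2.80-fold and 2.31-fold, did not pass either. The ratio of Fos in the Maf gate to other cells was 3.59-fold in batch 2 and 4.21-fold in batch 3. That difference passed (log2 difference 0.24, SE 0.04, edgeR adjusted p = 7.24e-05), as did that of Junb, from 3.66-fold to 4.22-fold. The levels in the gate itself were lower in batch 3, at means of 1385 against 1590 CPM for Fos and 630 against 813 CPM for Junb. Over all cells the means fell from 620 to 443 CPM for Fos and from 313 to 201 CPM for Junb. The ratios therefore grew while the levels fell. Interactions passed for 7.69% of all genes tested in the Slc6a9 against Gad comparison, where 5 of 9 members passed, and for 12.8% in the Maf comparison, where 5 of 9 passed. The corresponding shares were 7.54% for Gjd2 (3 of 9 members), 1.11% for Chat Slc18a3 (2), 1.51% for Slc17a8 (1) and 0.922% for Vip (2).

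Ier5 passed the interaction test in all 6 comparisons. Its excess in the Slc6a9 gate over the Gad gate was 2.33-fold in batch 2 and 6.23-fold in batch 3 (log2 difference 1.43, SE 0.08, edgeR adjusted p = 1.38e-27). In the Maf gate Ier5 was 1.19-fold higher than in other cells in batch 2 and 1.56-fold lower in batch 3. The gate itself hardly moved, at 63.2 to 78.1 CPM in batch 2 and 61.5 to 75.1 CPM in batch 3. The cells outside it rose from 52.1 to 66.9 CPM to 108 to 115 CPM. The same held for the Gjd2 gate, at 30.6 to 46.0 CPM and 31.6 to 38.2 CPM while the cells outside rose from 55.8 to 69.5 CPM to 110 to 116 CPM. Vip-gated cells had 22.3 to 37.1 CPM in batch 2 and 15.5 to 31.8 CPM in batch 3, against 55.1 to 68.1 CPM and 105 to 113 CPM outside. In these 3 comparisons the larger change lay in the cells used for reference. Ier2 passed the interaction test in 2 of the 6 comparisons. In the Slc6a9 gate against the Gad gate it did not pass in batch 2 (log2 change -0.07, edgeR adjusted p = 0.488) and was 1.66-fold higher in batch 3 (log2 difference 0.81, SE 0.105, edgeR adjusted p = 2.33e-09).

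**Figure D3:**
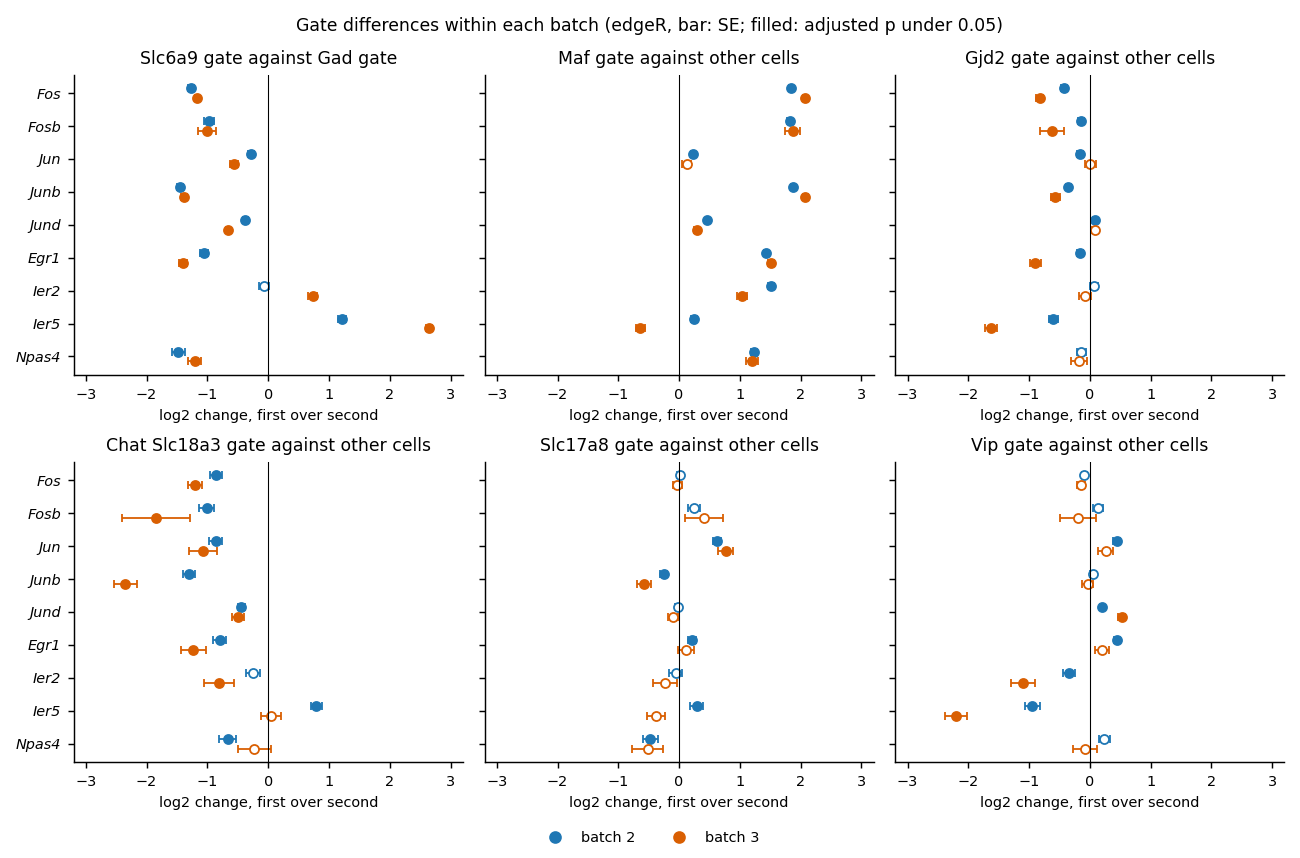
Log2 change with its standard error (x axis) of each member (y axis) in the 6 gate comparisons, fitted in batch 2 alone and in batch 3 alone, with filled points under an edgeR adjusted p of 0.05. Fos in the Slc6a9 gate lies at -1.27 and -1.17, and Ier5 in the Maf gate lies on opposite sides of 0, at 0.25 and -0.64.

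Across the 7 gates the order of levels differed from gene to gene. The Maf gate came first for Fos, Fosb, Junb, Egr1, Ier2 and Npas4, above the next gate in 10 of 10 libraries for each. For Fos the order then ran Gad, Slc17a8, Vip, Gjd2, Chat Slc18a3 and Slc6a9, at means of 596, 525, 476, 361, 253 and 252 CPM. Its 2 lowest gates had nearly equal means. Chat Slc18a3 exceeded Slc6a9 in 3 of 5 batch 2 libraries and 0 of 4 batch 3 libraries. Jun had another order, with Slc17a8 first at 222 ± 79.6 CPM, above Vip in 9 of 10 libraries, and the Maf gate behind both. Jund was led by Maf and Vip, at 542 ± 92.3 and 537 ± 80.4 CPM (SD, n = 10). Their order split by batch: Maf lay above Vip in library 1 and in 5 of 5 batch 2 libraries, and below it in all 4 batch 3 libraries. For Ier5 the Slc6a9 gate led, above Chat Slc18a3 in 10 of 10 libraries, and Gad, Gjd2 and Vip closed the order at 45.3, 36.4 and 26.8 CPM, each above the next in 10 of 10 libraries.

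The share of cells with a UMI was compared after each cell was thinned to 2000 UMIs, which left out 19.3% of cells as too shallow (23.6% in batch 2, 12.2% in batch 3). Fos was then found in 40.8% ± 4.89 of cells per library (SD, n = 10), and in 54.8% ± 3.39 without thinning. In the Maf gate Fos was found in 78.0% ± 4.68 of thinned cells and Junb in 57.9% ± 6.999, against 30.3% ± 4.07 and 16.4% ± 2.94 in the Slc6a9 gate. Fosb was found in 13.4% ± 1.10 of thinned cells in batch 2 (n = 5) and 3.10% ± 0.389 in batch 3 (n = 4), and in 22.2% and 7.20% without thinning. Ier5 was found in 16.8% ± 1.29 of thinned Slc6a9-gated cells in batch 2 and 34.1% ± 2.65 in batch 3, and in 24.7% and 45.0% without thinning. In the Gad gate those shares of Ier5 were 8.81% and 8.51%, close to each other.

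Within the Gad gate of 1 library, cells rich in Fos were often rich in Junb. Over thinned cells, Pearson's r between Fos and Junb had a median of 0.53 over the 10 libraries (0.437 to 0.621), Fos and Egr1 of 0.40, and Fos and Fosb of 0.37. Fos and Ier5 reached only 0.08. In the Maf gate Fos and Junb had a median r of 0.60, and in the Slc6a9 gate of 0.24. These values describe cells that share a library and a depth, and sparse counts lower them. The UMIs were also unevenly spread: the 10% of thinned Gad-gated cells with most Fos held 54.3% ± 3.16 of its UMIs, while for Jund that share was 33.9% ± 1.68 (SD, n = 10). Random scatter alone also gives an uneven spread, and its share for the top 10% was not computed. UMIs scattered at random (Poisson) at the same mean would have reached 68.1% of thinned Gad-gated cells for Fos and 59.6% for Jund. The mean shares found were 43.9% and 57.0%.

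**Figure D4:**
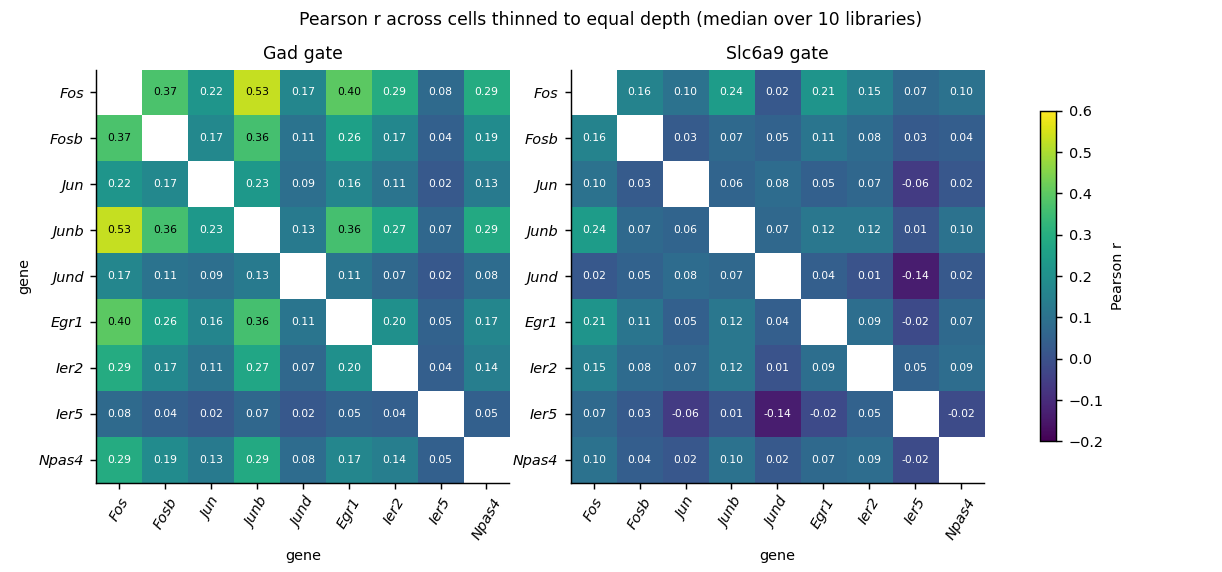
Median over the 10 libraries of Pearson's r between pairs of members across cells thinned to 2000 UMIs, in the Gad and Slc6a9 gates (1 panel each, both axes listing the genes, colour and numbers giving r). Fos and Junb reach 0.53 in the Gad gate and 0.24 in the Slc6a9 gate, and Fos and Ier5 in the Gad gate 0.08.

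Genes whose counts across cells followed Fos most closely were ranked among those found in at least 5% of cells, a list chosen after the values were seen. The ranking used all cells of a gate without thinning, with counts scaled to each cell's total and log-transformed. Its r are therefore not those of the thinned cells above. In the Gad gate (8986 genes) the closest to Fos were Junb (median r 0.63), Egr1 (0.54), Egr4 (0.51), Fosb (0.49), Dusp1 (0.48), Npas4 (0.42), AI593442 (0.42) and Maf (0.40). So 4 of the 8 were members, and the gate gene Maf stood among them. The genes closest to Ier5 in the Slc6a9 gate (7677 genes) were others: Nfix (0.38), Crabp1 (0.37), Igf1 (0.35), Htra1 (0.35), Tfap2c (0.35), Cadm1 (0.34), Hpca (0.34) and Rph3a (0.32). None of these 8 was a member. Likeness was also taken over the 70 sums of a library and a gate, after each library's mean over its gates was subtracted. The r thus describe differences among gates, over sums that share libraries and are not separate points. The genes closest to the members' mean were Epb41l3, Unc13b, Lmo4, Ak1 and Prdm8, with r from 0.871 to 0.886 among 6808 genes.

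Some members differed inside a gate with the UMIs of another marker. In the Gad gate, cells with no Maf UMI had 395 ± 60.8 CPM of Fos, cells with 2 to 4 had 1617 ± 311 CPM and cells with 5 or more had 1638 ± 218 CPM (SD, n = 10). The last 2 classes did not differ beyond their spread, and the 537 cells with 1 Maf UMI had 1204 ± 470 CPM. That class lay below the class of 2 to 4 in batch 2, at means of 1250.1 and 1875 CPM, but not in batch 3, at 1394 and 1398 CPM, and its library 1 value of 218 CPM came from 5 cells. Junb in the classes of 0, 1, 2 to 4 and 5 or more UMIs averaged 229.6, 609, 949.6 and 912 CPM in batch 2 and 156, 671, 592 and 679 CPM in batch 3. In both batches cells without Maf UMIs held the least Junb. Jun averaged 177, 205, 208 and 205 CPM in batch 2 and 94.6, 129, 87.1 and 91.9 CPM in batch 3, where cells without Maf UMIs were not the lowest. The classes also differed in depth, with medians of 5055, 4437, 6312 and 8367 UMIs per cell from the lowest to the highest class.

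In the Slc6a9 gate the second marker was Gjd2. In batch 2 Ier5 measured 161 ± 15.6 CPM in cells with no Gjd2 UMI, 49.98 ± 17.5 CPM in cells with 1 or 2 and 37.4 ± 17.4 CPM in those with 3 or more (SD, n = 5). In batch 3 the same classes had 372 ± 12.7, 191 ± 99.9 and 26.98 ± 5.10 CPM (SD, n = 4), so the batches differed most where Gjd2 was absent or low. Fos averaged 310.1, 303 and 219 CPM in batch 2 and 267, 217 and 132 CPM in batch 3. Jund ran the other way, at 314, 421 and 422 CPM in batch 2 and 239, 367 and 406 CPM in batch 3. These classes are descriptions and were not tested.

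Nfix, the gene closest to Ier5, was used in the same way after its values were seen. Slc6a9-gated cells without Nfix UMIs had 82.4 CPM of Ier5 in library 1, then 76.7, 80.8, 68.9, 69.6 and 69.4 CPM in batch 2 and 101.6, 98.1, 90.9 and 97.2 CPM in batch 3. Those with Nfix had 236 CPM in library 1, then 244, 254.9, 299, 281 and 247 CPM in batch 2 and 508, 484, 514 and 527 CPM in batch 3. Both classes were higher in batch 3. The class with Nfix was higher in every library, which follows from the choice of Nfix by its r with Ier5 in these same cells. It is no separate support for a link. The share of Slc6a9-gated cells with Nfix also differed, at 17.6% ± 1.88 in batch 2 (n = 5) and 41.3% ± 0.444 in batch 3 (n = 4). For Ier2 the batches were close within each class: cells with Nfix had 95.3 to 144 CPM in batch 2 and 101 to 123 CPM in batch 3. Without Nfix, Ier2 had 36.2 to 65.1 and 52.8 to 64.3 CPM.

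**Figure D5:**
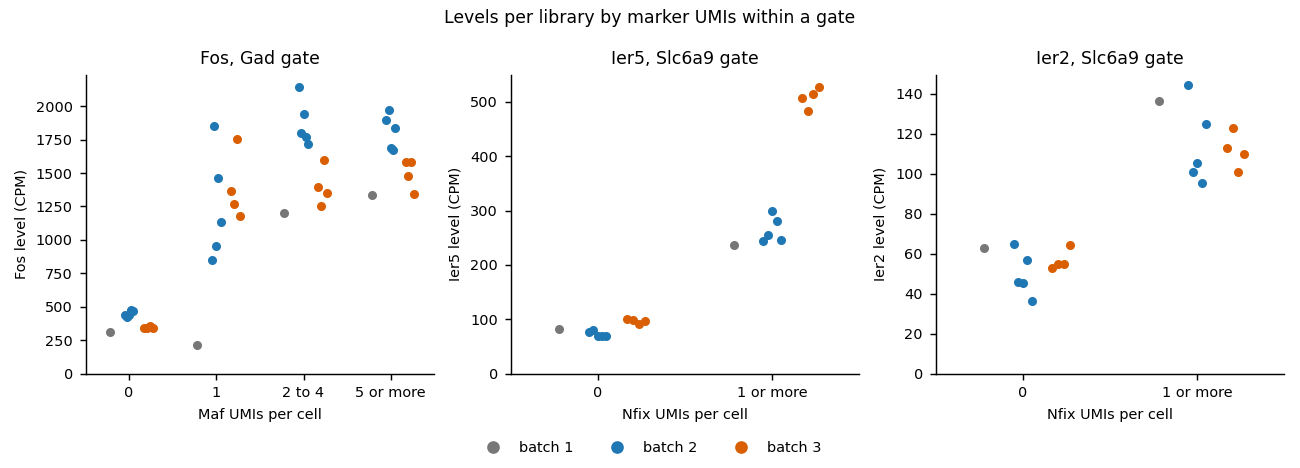
CPM (y axes, each starting at 0) of Fos in the Gad gate by Maf UMIs per cell, and of Ier5 and Ier2 in the Slc6a9 gate by Nfix UMIs per cell (x axes), with 1 point per library coloured by batch. Fos averages 395 CPM without Maf and 1617 CPM at 2 to 4 Maf UMIs, and Ier5 with Nfix lies at 484 to 527 CPM in batch 3.

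Other genes of the response were followed in 4 lists. Of 29 other immediate early genes tested in whole libraries, 15 were lower in batch 3 and none was higher, with a median log2 change of -0.27 against -0.01 over all genes. Egr3, a relative of Egr1, changed by -1.35, the kinase gene Sik1 by -1.08 and Zfp36, which promotes decay of short-lived messages, by -1.07. Over all genes tested 54.9% passed, 28.3% as lower and 26.6% as higher. Of 13 late activity genes, which follow the first wave, 7 were higher and 4 lower, with the neurotrophin Bdnf at 1.32, Rasl11a at -0.62 and the scaffold gene Homer1 at -0.56. Of 14 heat shock genes, 9 were higher and 3 lower, with the chaperones Hspa8 at 0.43, Hspa4 at -0.28 and Hspa1a at 0.25. Of 17 upstream regulators, 8 were lower and 2 higher, with the kinase gene Mapk14 at -0.92, Srf, the factor that binds the CArG box, at -0.72 and Mef2d at -0.38. All of these named genes passed the test.

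The counts were not the same inside the gates. In the Gad gate 13 of 27 other immediate early genes were lower in batch 3 and 1 was higher, with a median log2 change of -0.16, where 48.5% of all genes passed (25.1% as lower). In the Slc6a9 gate only 14 could be tested, of which 2 were lower and 2 higher, with a median of 0.0023, where 30.8% of all genes passed. The median of the late activity genes was 0.18 in whole libraries, 0.22 in the Gad gate and -0.19 in the Slc6a9 gate. Whether these lists differed between the gates was not tested.

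In the Slc6a9 gate against the Gad gate, 15 of 22 other immediate early genes were lower and 4 higher, with a median log2 change of -0.80 against 0.03 over all genes. Of all genes tested 61.2% passed, 29.1% as lower and 32.1% as higher. The nuclear receptor Nr4a2 changed by -4.97, the synaptic gene Arc by -2.94 and Klf2 by -2.33. Of 12 late activity genes 9 were lower and 3 higher, with Pcsk1, a neuropeptide-processing protease, at -3.81 and the synaptic pentraxins Nptx2 and Nptx1 at -2.55 and -2.54. Of 13 heat shock genes 7 were lower and 3 higher, with Hspa1a, a chaperone induced by stress, at -2.61, Dnajb1 at -1.09 and Hspb1 at 0.84. Of 17 upstream regulators 6 were lower and 6 higher, with Camk4 at -0.53, Srf at -0.42 and Crtc2 at -0.40. In the Maf gate 13 of 22 other immediate early genes were higher and 7 lower, with a median of 0.43, while late activity genes were split at 5 higher and 5 lower of 12. Of all genes tested there 50.7% passed, 26.1% as higher and 24.7% as lower.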

How the data were processed

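RNA was measured as UMIs per gene and cell in 10 libraries of the 10x Genomics Chromium 3′ v2 kit. The deposited values are raw UMI counts, made with Cell Ranger 2.1.0 on mm10 per the submitters' processing notes. Gene annotation and any filters on genes or cells: not given in the sources used here. The fewest genes detected in a cell ran from 601 to 728 over the 10 libraries, so the table holds no cell below 601. The table was tested to hold only whole numbers. No cell was removed and doublets were not treated. An alternative left out the 18.35% of cells in which at least 3 markers of 1 other cell type were detected. The types were Müller glia, microglia, endothelium, astrocytes and bipolar cells. The lists of rods, cones, ganglion cells, horizontal cells, pericytes and erythrocytes were not used for it.

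Counts were summed per library and gate and tested with edgeR 4.0.16 (R 4.3.3, TMM scaling, filterByExpr, quasi-likelihood fit, Benjamini-Hochberg adjustment over all genes tested). Gate comparisons kept the library as a block and used libraries with at least 10 cells on each side. Standard errors are the log2 change divided by the square root of F. Levels are CPM (UMIs per 1000000 UMIs) of the deposited counts summed in the gate. The fits were tested on simulated data. Alternatives were DESeq2 1.42.0, other scaling, no low-count filter, no library block, stricter gates, limited depth, another reference, leaving out each library, and, chosen after seeing the data, leaving out cells with shared barcodes or with Maf UMIs. Promoters came from RefSeq (GRCm38.p6). All members are named. From each other list the text names up to 3 genes with the largest change among those past the threshold. The members and lists were chosen with earlier results of these data known. Python 3.11.15 with numpy 2.4.6, scipy 1.17.1, pandas 2.3.3 and matplotlib 3.10.9 did the rest. The background share of cells with a UMI, measured on a gene that amacrine cells should lack, is not reported here.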

Additional observations from a re-analysis of the deposited data

Results flagged for a closer look

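Within a batch and a set of cells, the highest or lowest library was compared with the others by Dixon's gap ratio. Of 154 groups, 9 held a library that stood apart, and chance gives about 1 in 20. In batch 2 Fosb was lowest in library 2, at 80.4 CPM over all cells (the others 102.9 to 109.8) and 83.1 CPM in the Gad gate (the others 109.7 to 114.5). Jun was highest in library 5, at 192 CPM over all cells (the others 169 to 175). In the Maf gate Egr1 was highest in library 2, at 399 CPM (324 to 344). In the Gjd2 gate Junb was highest in library 4, at 288 CPM (223 to 238). In the Vip gate Npas4 was lowest in library 5, at 53.5 CPM (67.9 to 72.1). The last 3 groups were Atf3: library 3 at 1.08 CPM in the Gad gate and 1.41 CPM in the Chat Slc18a3 gate, and library 7 of batch 3 at 0.371 CPM in the Slc6a9 gate. Each of these Atf3 values rests on a handful of UMIs.

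A gate difference changed with the batch in 18 of 54 cases by the interaction test of edgeR, given here as the log2 difference of batch 3 minus batch 2. In the Slc6a9 gate against the Gad gate these were Ier5 at 1.43 (SE 0.08, edgeR adjusted p = 1.38e-27), Ier2 at 0.81, Egr1 at -0.33, Jund at -0.27 and Jun at -0.27. In the Maf gate they were Ier5 at -0.87, Ier2 at -0.46, Fos at 0.24, Junb at 0.22 and Jund at -0.16. In the Gjd2 gate they were Ier5 at -1.03, Egr1 at -0.74 and Fos at -0.41. Junb at -1.07 and Ier5 at -0.75 passed in the Chat Slc18a3 gate, Ier5 at -0.66 in the Slc17a8 gate, and Ier5 at -1.26 and Jund at 0.31 in the Vip gate. The remaining 36 did not pass, which does not show that those differences were equal. Leaving out single libraries was not run for these terms.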

How the results depend on the processing

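Over all alternatives, 1799 log2 changes of members stayed on their side of the threshold, 40 lost it, 44 gained it and 6 changed sign with a call on either side. Of the 1799, 46 changed sign without passing in either setting. All 6 came from limiting both sides to the same transmitter gate: Ier5 in the Maf gate (0.69), Jun in the Gjd2 gate (0.31), Fos (0.89), Junb (0.21) and Ier5 (-1.15) in the Slc17a8 gate, and Junb in the Vip gate (-0.30). That limit gave 2 members higher and 3 lower for Gjd2, 4 higher and 1 lower for Slc17a8 and 4 lower for Vip, from fewer cells. Such counts of members, here and below, stand without the share of all genes passing in the same setting. They show only how the members' calls moved. Without the library block, 3 members were lower for Gjd2, 0 higher for Chat Slc18a3 and 0 lower for Slc17a8. Stricter gates gave 1 higher for Gjd2 and 2 for Slc17a8. Cells of 2000 to 8000 UMIs gave 1 higher for Gjd2 and 5 lower for Slc17a8, and leaving out shared barcodes gave 1 higher for Gjd2. The cause was not tested. Leaving out 1 library at a time gave 0 to 1 members higher for Gjd2 (1 without library 1, 2, 3, 8 or 9), also in batch 2 (0 without library 4, 5 or 6) and in batch 3 (1 without library 9). For Slc17a8 it gave 1 to 2 higher (2 without library 1, 6 or 7), in batch 2 1 to 3 higher (1 without library 3, 4 or 5) and 1 to 2 lower (1 without library 3), and in batch 3 1 to 2 lower (2 without library 7). For Vip it gave 1 to 3 lower in batch 2 (1 without library 2) and 1 to 2 higher in batch 3 (2 without library 9). Genes called moved past 1.5 times in 4 cases: 2037 with DESeq2 against 3072 for the batches in the Slc6a9 gate, where Fos did not pass, 3200 against 5634 (Gjd2) and 1389 against 2881 (Slc17a8) within the same transmitter gate, and 931 against 1410 for Chat Slc18a3 in batch 3 without library 7. The Chat Slc18a3, Slc17a8 and Vip gates held as few as 17, 24 and 33 cells in a library, which limits every value from them.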
